A study of Macaca mulatta with 4 samples.

Results

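Parenchymal microglia, the resident macrophages of the brain tissue itself, made up 157 of the 32587 barcodes with at least 500 genes (0.482%) in single-nuclei RNA-seq of the fetal rhesus macaque cerebellum. A barcode was taken as a microglial nucleus when it held a UMI (a unique molecule counted once) of at least 2 of the 6 genes P2RY13, CX3CR1, ADAM28, CSF1R, SELPLG and PTPRC, and 0 UMIs of LYVE1 and F13A1, which mark macrophages at the borders of the brain. The members were thus chosen by measured UMIs of these 8 genes, whose own values are given as a description. The libraries came from 4 fetuses, 1 library each. The Control female and the Control male, both at 130 days of gestation, had no intervention. The LPS female (131 days) and the LPS male (133 days) had been exposed to 1 mg of lipopolysaccharide, a bacterial cell wall product, given into the amniotic fluid 5 days earlier. Because the controls had no injection, the injection and LPS cannot be told apart, and the LPS fetuses were older by 1 and 3 days. Values of the 4 libraries are given in the order Control female, Control male, LPS female and LPS male unless stated otherwise.

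Microglia arise from yolk sac macrophages that enter the brain early in development and then renew themselves there. They survive through signals of the CSF1 receptor, take on their tissue identity under TGF-beta, and watch their surroundings with receptors for nucleotides, complement and cell debris. In the developing cerebellum they clear dying cells and synapses and respond to bacterial products through TLR4 and its co-receptors. The amniotic LPS model asks whether such cells change in number or in gene expression when inflammation reaches the fetus.

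The libraries held 61665690, 34282015, 41642819 and 56935290 UMIs in all barcodes, and the microglia held 296963, 172562, 210708 and 169306 of them. The median microglial nucleus had 3573 UMIs and the median other nucleus 3243. Between 16 and 22 barcodes with at least 500 genes were shared by each pair of libraries, and none of them was a microglial nucleus in both libraries. The UMIs of UTY, a gene of the Y chromosome, stood at 348 and 289 CPM (UMIs of a gene per 1000000 UMIs of the class) in the microglia of the Control male and the LPS male and at 10.1 and 0 CPM in those of the Control female and the LPS female.

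The myeloid identity of the nuclei was described with 28 myeloid genes that the rule did not use. This list was chosen with earlier results of these data known, so its counts are a description and not an independent check. Among the 28 genes were P2RY12, TREM2, the complement gene C1QB and the lysosomal gene LAPTM5. The median microglial nucleus held 19 of them and the median other nucleus 2. At least 10 were found in 141 of the 157 nuclei, and 9 nuclei had fewer than 5. Just inside the threshold, the 39 nuclei with 2 rule markers had a median of 14 of these genes and 25 of them had at least 10. Just outside it, the 871 barcodes with 1 rule marker had a median of 2, and 22 of them had at least 10. Of all barcodes outside the class, 117 had at least 10, and 84 of these held a UMI of LYVE1 or F13A1. The 28 genes were thus more frequent in the class than outside it, and nuclei with UMIs of the border genes hold them too.

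Within the class, 39 nuclei carried RNA of neurons as well. These mixed nuclei were defined as those in which marker genes of the granule neuron lineage took at least 0.5 times the median share of the other barcodes of their library. They numbered 10, 9, 8 and 12 and held 37.9, 72.8, 53.1 and 59.7% of the microglial UMIs. Their median was 7501 UMIs against 3215.5 in the other 118 nuclei. Of the 39, 26 held at least 10 of the 28 myeloid genes, and of the other 118, 115 did. The largest nucleus alone held 34.9% of the UMIs in the Control male. The counts of called genes below were therefore also computed without the mixed nuclei, a choice made after seeing the data, as were the values of named genes that still passed the filter on low counts. Whether they are 2 nuclei in 1 droplet was not tested, since no doublet caller was run.

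**Figure D1:**
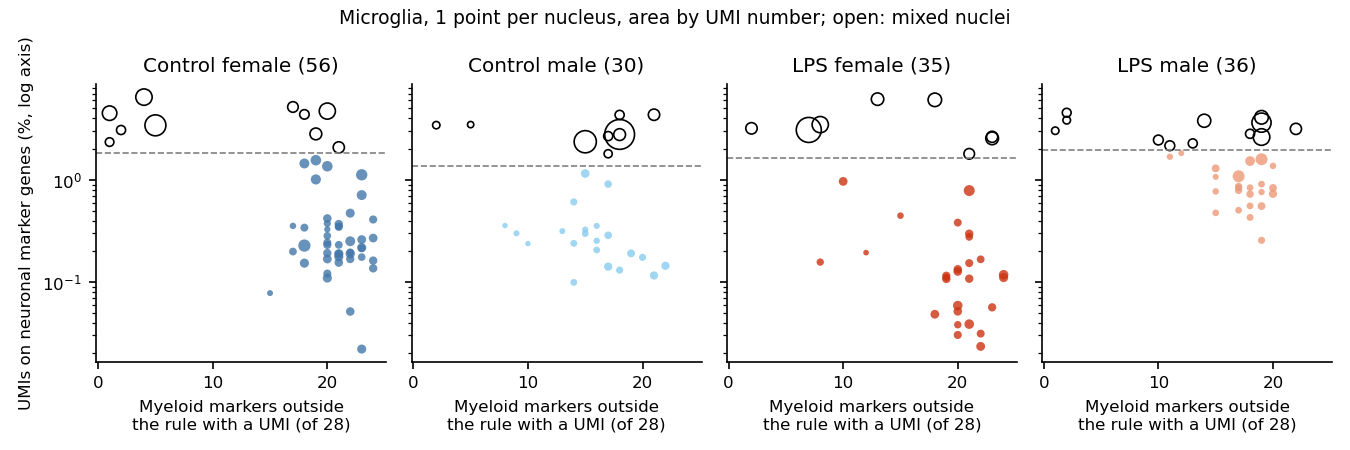
Microglial nuclei of the 4 libraries, 1 point each. The x axis gives how many of the 28 myeloid genes outside the rule had a UMI, the y axis the percentage of UMIs on neuronal marker genes (log axis, values under 0.01 drawn there), the point area the UMI number and the dashed line the limit above which a nucleus was called mixed. The 39 open points are the mixed nuclei, and 13 of them have fewer than 10 myeloid genes.

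The number of microglia did not separate the groups. There were 56 of 9256, 30 of 8621, 35 of 6905 and 36 of 7805 nuclei, or 0.605% (exact 95% interval 0.457 to 0.785), 0.348% (0.235 to 0.496), 0.507% (0.353 to 0.704) and 0.461% (0.323 to 0.638). Both LPS values lay between the Control values. The mean share was 0.477% ± 0.182 (SD, n = 2) in Control and 0.484% ± 0.0323 (SD, n = 2) in LPS, and the difference of 0.00756 percentage points was smaller than the spread between fetuses (exact permutation test, two-sided, p = 1, where 0.333 is the smallest p that 2 against 2 allows). With each barcode thinned to 1000 UMIs before the rule was applied, the shares were 0.383, 0.242, 0.415 and 0.249%, and the groups overlapped again. The intervals cover counting error only.

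The border macrophages, barcodes with at least 2 of the 6 markers and a UMI of LYVE1 or F13A1, numbered 14, 15, 14 and 1. They made up 20, 33.3, 28.6 and 2.70% of the nuclei of both macrophage classes. The LPS male thus had a single such nucleus, and the other 3 libraries were close to each other.

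**Figure D2:**
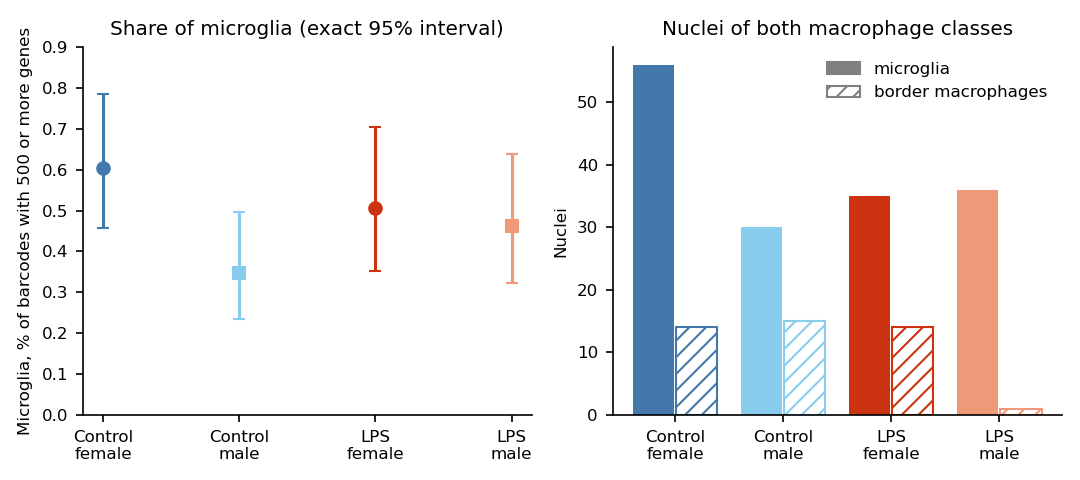
Left, share of microglia among barcodes with at least 500 genes in each library (%), with exact 95% intervals. Right, number of microglial nuclei (filled bars) and border macrophages (hatched bars). The LPS shares of 0.507 and 0.461% lie between the Control shares of 0.605 and 0.348%, and the LPS male has 1 border macrophage.

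To describe what the microglia express, their summed UMIs were compared with those of all other nuclei of the same library, with the 8 rule genes taken out. Most tested genes of the homeostatic, transcription factor, complement and phagocytosis lists were higher in microglia, and most granule neuron genes were lower. At an adjusted p under 0.05 and a log2 difference over 1 in size (edgeR quasi-likelihood test with library as a block), 946 of 13619 genes were higher (6.95%) and 950 lower (6.98%). Without the mixed nuclei, 1225 of 13331 were higher (9.19%) and 2251 lower (16.9%). Of the first calls, 900 and 866 were called again in the same direction.

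TNFAIP8L3 (ENSMMUG00000001388), which encodes a carrier of phosphoinositide lipids, stood at 434, 238, 446 and 177 CPM in microglia and at 1.39, 1.70, 1.14 and 1.10 CPM in other nuclei. It had the largest difference among the genes named by rule (log2 7.70, SE 0.29, edgeR adjusted p = 2.77e-15). A2M (ENSMMUG00000003238), a protease inhibitor, stood at 1175, 1089, 1481 and 1122 CPM against 3.6 to 14.3 CPM in other nuclei (log2 7.32). Without the mixed nuclei A2M had 1626, 3178, 2693 and 2038 CPM, and the Control male moved from the lowest library to the highest. C3, the central complement protein, stood at 229, 203, 204 and 585 CPM against 1.26 to 2.79 CPM (log2 7.0), and its highest library was the LPS male. After thinning to 1000 UMIs, A2M was detected in 65.8% of 155 microglial nuclei and 0.563% of 29310 other nuclei, and C3 in 32.3 and 0.164%. The remaining named genes included the guanine exchange factors FGD2 and VAV1, the transcription factors IKZF1 and IRF8, the receptor CD244, the adaptor LCP2, the membrane-shaping protein BIN2, the G-protein regulator RGS1, the nuclear protein MNDA, the integrin activator APBB1IP, the lysosomal protein LAPTM5, the lipid flippase ATP8B4, the kinase TEC, TMEM114, ENSMMUG00000028749 and ENSMMUG00000045928, with log2 differences of 6.32 to 7.22. The mixed nuclei held 17.2% of the UMIs of these 20 genes and 53.1% of all microglial UMIs. The other nuclei include the border macrophages, and not all of these genes were particular to microglia against them. In the Control female, Control male and LPS female, LCP2 had 374, 258 and 226 CPM in border macrophages and 148, 162 and 123 CPM in microglia. IKZF1 was also higher in the border macrophages of these libraries, and TNFAIP8L3 was lower, with 309, 45.5 and 145 CPM.

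**Figure D3:**
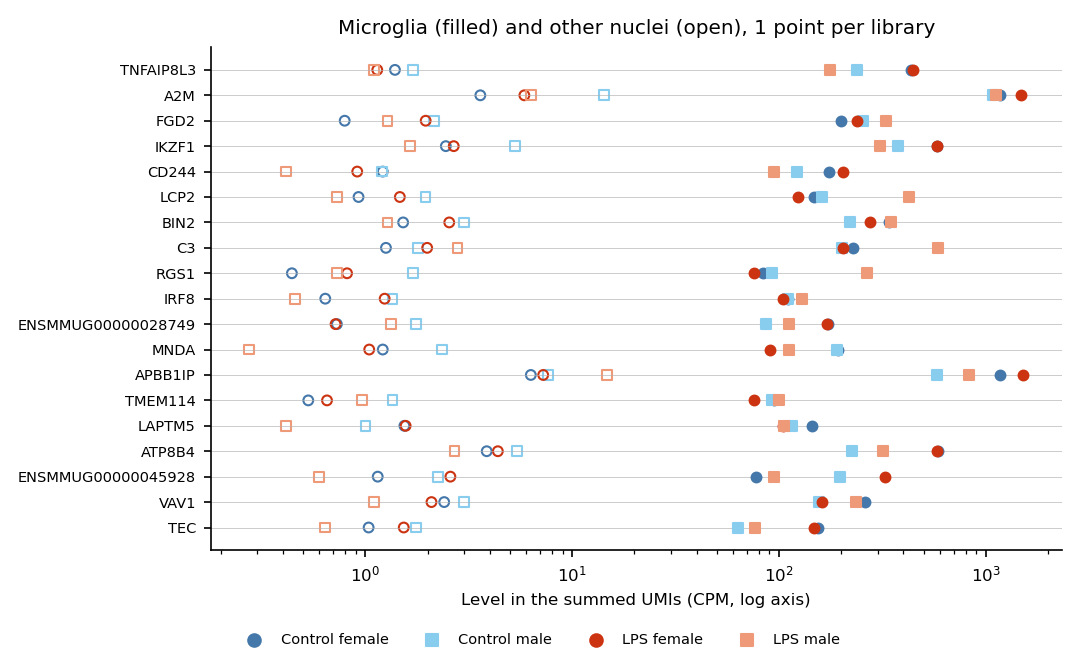
The named genes in microglia (filled) and other nuclei (open), in CPM of the summed UMIs on a log axis, 1 point per library. Every filled point lies to the right of every open point of its gene, as in TNFAIP8L3, with 177 to 446 CPM against 1.10 to 1.70 CPM.

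Of 18 tested genes of the homeostatic state and of nucleotide sensing, 17 were higher and 1 lower (SERPINE2, a protease inhibitor), and their median log2 difference was 4.29, against -0.22 over all 13619 genes. P2RY12, the ADP receptor that guides microglial processes, had 684, 122, 541 and 260 CPM in microglia and 8.10 to 12.6 CPM in other nuclei (log2 4.91, SE 0.33, edgeR adjusted p = 2.83e-11). GPR34, a receptor for lysophosphatidylserine, had 394, 46.4, 204 and 76.8 CPM (log2 5.17). Without the mixed nuclei they had 1041, 235, 1002 and 513 CPM and 591, 128, 385 and 176 CPM. Both genes were higher in the 2 females than in the 2 males either way. How many of all genes have this order was not counted. SALL1, a transcription factor of microglial identity, showed the same order between the sexes, with 148, 40.6, 99.7 and 35.4 CPM (log2 5.26). The sum of the 21 homeostatic genes had the same order with all nuclei, at 7557, 3599, 5671 and 5517 CPM, and not without the mixed ones, at 10812, 8637, 9516 and 9546 CPM. TREM2, the lipid and debris receptor, had 108, 116, 66.4 and 59.1 CPM (log2 6.24) and was highest in the Control male.

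The share of mitochondrial UMIs among the microglial UMIs had the order of P2RY12, GPR34 and SALL1 between the sexes. It was 0.211 and 0.215% in the females and 0.0249 and 0.01% in the males. The other nuclei had 0.225, 0.0196, 0.212 and 0.0257%. The part of this in the levels of P2RY12, GPR34 and SALL1 was not tested. Among the rule genes themselves, which are described and not tested, CX3CR1 (the fractalkine receptor) had 170, 7, 89 and 75 UMIs and CSF1R 61, 43, 25 and 54. The Control male, with the fewest CX3CR1 UMIs, did not have the fewest of CSF1R.

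Of 15 myeloid transcription factors tested, 11 were higher and none lower (median log2 2.83). SPI1, which encodes the macrophage master regulator PU.1, had 74.1, 75.3, 28.5 and 70.9 CPM against 4.28 to 11.6 CPM in other nuclei (log2 2.83). RUNX1 had 498, 690, 413 and 284 CPM (log2 5.65) and IRF8 111, 110, 104 and 130 CPM (log2 6.81). BHLHE40, NR4A2, FOXP2 and TOX were not called, and 2 of the 15 were lower without the mixed nuclei.

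Of 15 complement genes tested, 8 were higher and 2 lower (median log2 3.19). Those higher were C1QB, C1QC, C3, CFD, C5AR1, ITGAM, ITGB2 and VSIG4, which encode the recognition molecule C1q, the downstream proteins and their receptors. The lower genes included the inhibitor SERPING1, which had 0 UMIs in microglia. C1QC had 18, 1, 10 and 1 UMIs, most of them in the females, whose microglia also held more UMIs in all. ITGAM, a chain of complement receptor 3, had 128, 162, 190 and 124 CPM (log2 5.70), with overlapping groups.

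Of 30 genes of phagocytosis and lipid handling, 22 were higher and 1 lower, the engulfment factor DOCK1 (median log2 1.93). MERTK, the receptor for dying cells, had 1552, 498, 963 and 679 CPM against 10.7 to 15.8 CPM in other nuclei (log2 5.83). SPP1 (osteopontin) had 397, 278, 717 and 195 CPM (log2 5.46), and the pattern receptor CLEC7A had 135, 23.2, 271 and 59.1 CPM (log2 7.42). In both genes the LPS female was the highest library. APOE, a lipid carrier, had 849, 86.9, 1006 and 112 CPM in microglia (log2 1.64). The free RNA, summed over barcodes with at most 100 UMIs, held 1281, 99.6, 1996 and 380 CPM of APOE, above the microglia in every library, and the part of free RNA in the microglial values was not tested.

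LPS sensing genes were present. Of 30 genes of TLR and NF-kB signaling, 12 were higher and none lower: the LPS receptor TLR4 and its co-receptors CD14 and LY96, TLR5, TLR6, IRAK1, IRAK2, IRAK3, IKBKB, REL, NLRP3 and CASP1 (median log2 0.97). TLR4 had 77.5, 23.2, 80.7 and 100 CPM against 0.751 to 1.24 CPM in other nuclei (log2 5.85, SE 0.49, edgeR adjusted p = 2.12e-09). CD14 had 50.5, 34.8, 57.0 and 5.91 CPM (log2 4.39), and the inflammasome sensor NLRP3 43.8, 52.2, 38 and 29.5 CPM (log2 4.97). The LPS male was the highest library for TLR4 and, with 1 UMI, the lowest for CD14.

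Few UMIs fell on inflammatory cytokines. Of 35 genes for cytokines, chemokines and their induced enzymes in the annotation, 16 had 0 UMIs in all microglia, among them IL1A, CXCL10, PTGS2 and NOS2. In a library, 3 UMIs correspond to 10.1, 17.4, 14.2 and 17.7 CPM, the level that a count of 0 allows, and values below it rest on 1 or 2 UMIs. IL1B had 4, 1, 0 and 2 UMIs, TNF 1, 0, 0 and 0, IL6 0, 0, 0 and 1 and IL10 0, 0, 1 and 0. Of the 12 genes tested, 6 were higher in microglia than in other nuclei (TNFSF13B, CCL3, TGFB1, CSF1, IGF1 and PDGFB) and 2 lower (IL16 and PDGFC). The chemokine CCL3 had 22, 3, 16 and 1 UMIs (log2 7.21), most of them in the females, whose microglia also held more UMIs in all.

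Of 31 interferon response genes tested, 13 were higher and 1 lower (median log2 1.40), and without the mixed nuclei 22 were higher and 0 lower (median log2 1.92). The higher ones included the signaling genes JAK2 and IFNGR1, EPSTI1 (104, 81.1, 80.7 and 88.6 CPM) and TRIM22 (212, 69.5, 157 and 118 CPM). The induced genes ISG15, IFIT3, IFI6, IFI27, OAS1 and OAS3 had 0 UMIs in microglia. Of 13 antigen presentation genes tested, 7 were higher, among them the costimulatory CD86 (87.6, 98.5, 119 and 35.4 CPM) and CD83 (310, 371, 214 and 360 CPM), and none was lower (median log2 2.09). CD74, the invariant chain of class II molecules, had 2, 0, 1 and 4 UMIs.

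Of 26 genes of TGF-beta and CSF1 receptor signaling, 14 were higher and 2 lower, TGFBR3 and LTBP1 (median log2 1.26). The ligand TGFB1 had 253, 162, 142 and 236 CPM against 10.2 to 22.5 CPM (log2 3.63). NRROS, which presents TGF-beta on microglia, had 202, 319, 299 and 142 CPM (log2 4.50), and the receptor TGFBR1 680, 429, 636 and 372 CPM (log2 2.12). The phosphatase INPP5D, which acts below immune receptors, had 1428, 719, 1262 and 1660 CPM (log2 5.80). The groups overlapped in each of these genes. Of 14 ligands of microglial receptors, 6 were higher in microglia (CSF1, TGFB1, PROS1, SPP1, C3 and APOE), and CD200, a neuronal ligand that restrains microglia, was lower (log2 -1.04).

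Markers of neurons, glia and vessels were mostly lower or not called. Of 13 border macrophage markers tested, 6 were higher in microglia than in other nuclei (MRC1, CD163, CD163L1, DAB2, STAB1 and MAF), 1 was lower and 6 were not called, and 55 of the 157 microglial nuclei held a UMI of MRC1 or CD163. Of 24 granule neuron genes, 13 were lower and none higher with all nuclei (median log2 -1.05). Without the mixed nuclei, 23 were lower (median log2 -3.54). The mixed nuclei were defined by these same genes, so the lower levels without them follow from the definition. CA8, a Purkinje cell gene, was higher with all nuclei (log2 1.86) and lower without the mixed ones (log2 -2.61). Of 7 Purkinje cell and 6 interneuron genes, 5 and 5 were lower without the mixed nuclei and 0 and 0 with them. The summed granule neuron genes took 18453, 21459, 19904 and 23661 CPM of the microglial UMIs with the mixed nuclei and 4298, 3497, 2045 and 10103 CPM without. The LPS male thus kept the most neuronal RNA after they were left out. Of the blood cell markers, 8 of 17 genes of monocytes and neutrophils and 12 of 19 of lymphocytes had a UMI, and 5 and 4 microglial nuclei held UMIs of at least 3 genes of these lists. PLAC8 (33.7, 34.8, 47.5 and 29.5 CPM) and CD4, which macrophages of primates can carry, were higher in microglia than in other nuclei. S100A8, S100A9, S100A12, MPO, ELANE and LTF of monocytes and neutrophils and CD3D, CD3E, CD8A, CD79A, CD79B and NKG7 of lymphocytes had 0 UMIs in microglia.

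The immediate early and heat shock genes, which mark handling and stress, were also compared. Of 13 tested, 3 were higher in microglia (KLF6, ZFP36 and BTG2) and none lower, and FOS, FOSB, JUNB and IER2 had 0 UMIs. KLF6 had 94.3, 29.0, 42.7 and 11.8 CPM (log2 1.57), higher in each female than in the male of the same group.

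Between LPS and Control, no gene was called in microglia. The test took 4730 genes, and 0 (0%) passed an adjusted p under 0.1 with a log2 difference over 0.25 in size (edgeR quasi-likelihood test). DESeq2 also called 0, and so did edgeR without the mixed nuclei on 2330 genes. At an unadjusted p under 0.05 there were 51 genes with edgeR (1.08%) and 27 with DESeq2. The median SE of a log2 difference was 0.54, so that large differences could also be missed with 2 fetuses a group. With sex as a block, which leaves 1 residual degree of freedom, 26 genes were called, 18 higher and 8 lower in LPS. Without the LPS male 30 were called, without the LPS female 6, without the Control male 1 and without the Control female 0.

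The list medians of the LPS difference are set here beside that of all 4724 tested genes outside the rule (log2 0.01, with quartiles of -0.28 and 0.28, and no gene called). The median was -0.38 in 14 homeostatic genes, 4 of them above 0, 0.11 in 13 transcription factors, 0.24 in 19 phagocytosis genes, 0.19 in 12 TLR and NF-kB genes, 0.13 in 10 interferon genes and -0.05 in 19 TGF-beta and CSF1 receptor genes. The 3 complement genes tested had a median of 0.17, the 4 cytokine genes -0.13 and the 3 antigen presentation genes -0.19. Across all genes, 462 had both LPS libraries above both Control libraries (9.77%) and 586 had both below (12.4%). Of the homeostatic genes, none had both LPS libraries above and 3 had both below. P2RY12 differed by a log2 of 0.01 (SE 0.80), TREM2 by -0.78 (SE 0.46), C3 by 0.88 (SE 0.56), TLR4 by 0.79 (SE 0.65) and CLEC7A by 1.05 (SE 0.92), each with an edgeR adjusted p of 1. In CPM with the mixed nuclei included, the groups did not overlap for TREM2, lower in both LPS libraries, and TLR4, higher in both, and overlapped for the other 3. For TLR4 the LPS female lay only just above the Control female.

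**Figure D4:**
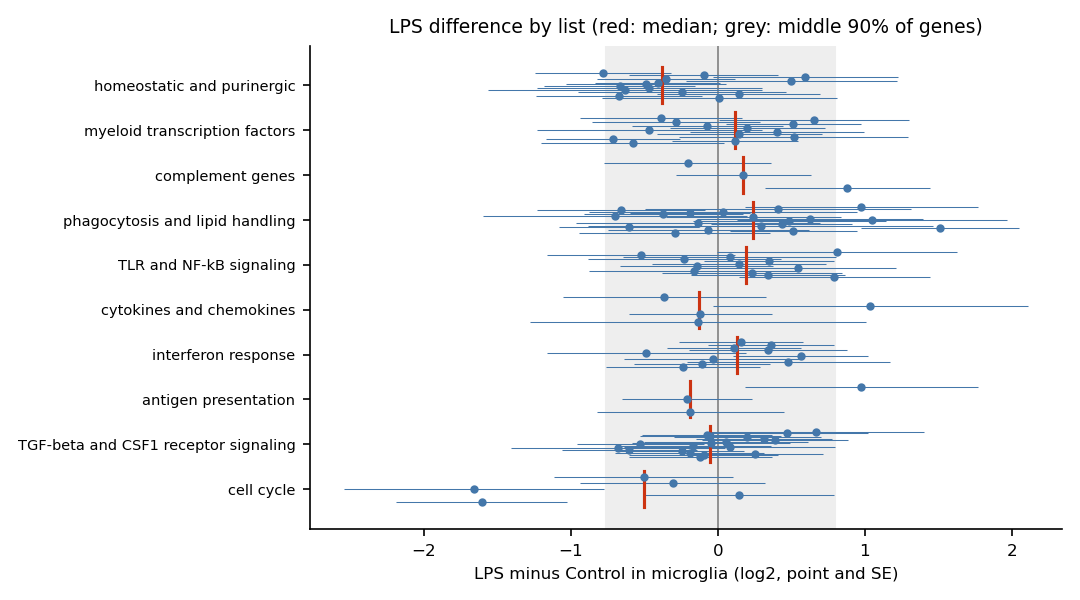
LPS minus Control difference in microglia (log2) of the tested genes of 10 lists, with the SE as a bar, the median of each list as a red line and the middle 90% of all tested genes as a grey band. No gene was called, and the red lines lie between -0.51 (cell cycle) and 0.24 (phagocytosis).

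Because none passed, genes were named from the 5 with the smallest unadjusted p in each direction. Those with positive values included GABRB2, CDH18, SCN2A and LRRC3B, several of them neuronal. GABRB2, a GABA receptor subunit, had 12, 8, 30 and 27 UMIs in all microglia and 1, 0, 0 and 5 outside the mixed nuclei. Those with negative values included NXPH1, VCAN, SOX6 and LHFPL3. NXPH1, a neurexin ligand, had 153, 18, 3 and 4 UMIs (log2 -4.02, SE 0.92, unadjusted p = 0.00318, edgeR adjusted p = 1), of which a single nucleus of the Control female held 135. The mixed nuclei held 91.8% of the UMIs of the first 5 genes and 78.1% of those of the second 5, set against 53.1% of all microglial UMIs. LHFPL3 turned from -1.38 to 1.09 without them, and the other 9 genes were not tested there. With sex as a block, 9 of the 10 genes were called, GABRB2 (edgeR adjusted p = 0.0658) and NXPH1 (edgeR adjusted p = 2.53e-06) among them. The 10 genes had been picked by p from the same libraries, so this fit gives no separate support for them.

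Among the 10 lists plotted, the cell cycle genes had the lowest median LPS difference (log2 -0.51, 5 genes tested, 0 called). The 29 genes of the list summed to 876, 1321, 565 and 679 CPM in all microglia and to 1295, 1258, 628 and 587 CPM outside the mixed nuclei. The other nuclei had 884, 1061, 1020 and 774 CPM. Both LPS libraries were thus below both Control libraries in microglia, with and without the mixed nuclei. Other list sums had groups apart too. Of the 23 lists, 8 had groups that did not overlap with all nuclei, 4 without the mixed ones and 3 in both. Those 3 were cell cycle and monocyte and neutrophil genes lower and lymphocyte genes higher in LPS. Each had an exact permutation p of 0.333 (two-sided), the smallest that 2 against 2 allows. Random labels would part the groups of a list that often. In the lymphocyte list, only CD4 and EBF1 were tested between LPS and Control, and EBF1 was lower in microglia than in other nuclei. VCAN, which is in the monocyte list and is also a gene of oligodendrocyte precursors, had 411, 191, 80.7 and 59.1 of the 552, 255, 176 and 171 CPM of that list. In the Control male, a nucleus with 32 of the 59 cycle UMIs carried the value, and without the top nucleus of each library the sums were 1118, 623, 523 and 287 CPM. Nuclei outside the mixed set with UMIs of at least 3 cycle genes numbered 13 of 46, 3 of 21, 4 of 27 and 2 of 24 (28.3, 14.3, 14.8 and 8.33%), and here the LPS female lay above the Control male. The median depth of these nuclei was 3747.5, 2091, 3703 and 2063 UMIs. DIAPH3, a formin of dividing cells, had 165, 81.1, 33.2 and 47.3 CPM (log2 -1.61, SE 0.58, edgeR adjusted p = 1).

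To ask whether an LPS difference was particular to microglia, the interaction of group and class was tested against all other nuclei. Of 14851 genes, 3 were called (0.0202%), 1 with a higher (0.00673%) and 2 with a lower LPS difference in microglia (0.0135%). MSR1, a scavenger receptor, had 53.9, 29.0, 133 and 106 CPM in microglia, both LPS libraries above both Control libraries, and 35.6, 23.7, 4.11 and 44.9 CPM in other nuclei, where the LPS female was far below the other libraries. The LPS difference was larger in microglia by a log2 of 2.62 (SE 0.60, edgeR adjusted p = 0.0801). Within microglia alone it was 1.51 (SE 0.54, unadjusted p = 0.0266, edgeR adjusted p = 1), and without the LPS female the interaction was 0.78 and not called. Of the 67 MSR1 UMIs, 15 lay in mixed nuclei, and the interaction without these nuclei was 3.01 (SE 0.74, edgeR adjusted p = 0.672). NXPH1 (-3.66, SE 0.60, edgeR adjusted p = 1.24e-05) and NTNG1 (-2.76, SE 0.64, edgeR adjusted p = 0.0801), both of synapse formation, had 172 of 178 and 42 of 53 microglial UMIs in mixed nuclei, and were -0.46 and -1.59 without them. DESeq2 called 0 genes here, with 108 at an unadjusted p under 0.05 against 402 with edgeR.

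The class most like the microglia is the border macrophages, which live in the meninges and around vessels. Of 2954 genes tested within libraries, 143 were called (4.84%), 93 of them higher (3.15%) and 50 lower in microglia (1.69%). Without the mixed nuclei, 17 of 1354 genes were higher (1.26%) and 41 lower (3.03%), where 39 of the 50 lower genes and 7 of the 93 higher genes were still tested. Of those, 24 and 1 were called again. The second test also left out border nuclei over the same neuronal limit. The LPS male thus entered with 1 border nucleus in the first test and not in the second. That nucleus had 24938 CPM of granule neuron genes. It had 3206 CPM of the 28 myeloid genes, against 15043 to 22593 CPM in the border nuclei of the other libraries. The border values given below are those of all border nuclei. Without the LPS male, 101 genes were called (44 higher, 57 lower) and without the Control male 69 (44 and 25). Without the LPS female 35 were called (13 and 22) and without the Control female 32 (17 and 15). DESeq2 called 20 higher and 34 lower. Which direction had more calls thus depended on the fit and the libraries.

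Among the genes lower in microglia, SLC40A1, the iron exporter ferroportin, had 4, 0, 3 and 1 UMIs in microglia and 28, 11, 41 and 2 in the far fewer border nuclei (log2 -5.21, SE 0.59, edgeR adjusted p = 1.97e-15). SELENOP, a selenium carrier, had 3, 0, 7 and 1 UMIs against 40, 15, 29 and 2 (log2 -4.87), and CD200R1, the receptor of CD200, 0, 1, 2 and 0 against 30, 6, 13 and 1 (log2 -5.63). The other 7 named genes were TNFRSF11A (the receptor RANK), COLEC12, KLHL13, the endocytic adaptor DAB2, the Notch transcription factor RBPJ, the haptoglobin receptor CD163 and ENSMMUG00000048087, with log2 differences of -4.33 to -2.75. Without the mixed nuclei CD163 was at -1.74 and not called (edgeR adjusted p = 0.0756), and CD200R1 and COLEC12 were not tested. RBPJ had 340, 377, 218 and 213 CPM in microglia and 6618, 3624 and 2663 CPM in the border nuclei of the first 3 libraries. The single border nucleus of the LPS male had 1 UMI of RBPJ (178 CPM), below the microglia of that library. In microglia, RBPJ did not differ by the test from the other nuclei of the cerebellum (log2 0.20, SE 0.20, edgeR adjusted p = 0.555).

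Of 11 tested genes of the border macrophage list, 9 were lower in microglia (median log2 -2.75, against 0.11 over all genes). Of the 9 of them also tested without the mixed nuclei, 6 were lower there, 5 of these in both fits. This list was chosen with earlier results of these data known, so these counts are a description. Of 13 homeostatic genes, 0 were called (median log2 0.22), and P2RY12 had a log2 difference of 0.47 (SE 0.45, edgeR adjusted p = 0.771). Of the 9 of them also tested without the mixed nuclei, 1 was higher (SORL1, log2 1.78, edgeR adjusted p = 0.0278), and the median was 1.03. The 10 named genes that were higher in microglia, OPCML, ITPR1, GRIK1, NRXN3, FILIP1L, ASIC2, DAB1, DLG2, PTPRR and RORA, had 95.6% of their microglial UMIs in the mixed nuclei and were not tested without them. TNFAIP8L3 was the gene called higher in both fits (log2 1.44, edgeR adjusted p = 0.0285, and 1.88, edgeR adjusted p = 0.0179). PLXDC2, with 9733, 6739, 9728 and 5557 CPM outside the mixed nuclei against 2016, 2457 and 3211 CPM in the border nuclei of the first 3 libraries, was not called with all nuclei (edgeR adjusted p = 0.381) and was called without the mixed ones (log2 1.89, SE 0.25, edgeR adjusted p = 0.000295).

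**Figure D5:**
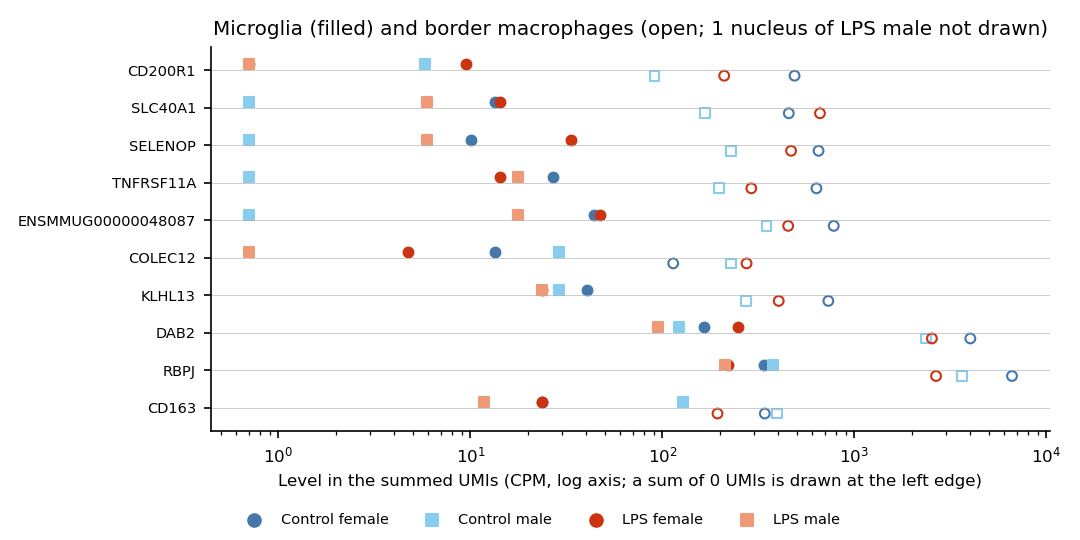
The 10 named genes that were lower in microglia (filled) than in border macrophages (open), in CPM of the summed UMIs on a log axis, 1 point per library. A sum of 0 UMIs is drawn at the left edge, and the single border nucleus of the LPS male is not drawn. In RBPJ the filled points span 213 to 377 CPM and the open points 2663 to 6618 CPM.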

How the data were processed

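Nuclei of flash-frozen cerebellum were profiled with 10x 3′ chemistry. The authors mapped the reads with introns included; the labels and methods name CellRanger 5.0 and Mmul 8.0.1, and the matrix headers name Cell Ranger 4. The deposited values are raw UMI counts per gene and barcode, and the ambient RNA correction that the methods describe is not in them. The fetus was the replicate, 2 per group, so every p rests on 4 libraries or fewer.

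Counts of barcodes with at least 500 genes were summed per library over microglia, border macrophages and other nuclei with Python 3.11.15, numpy 2.4.6, scipy 1.17.1 and pandas 2.3.3. Sums were tested with edgeR 4.0.16 in R 4.3.3 (filterByExpr, TMM, quasi-likelihood, Benjamini-Hochberg) and with DESeq2 1.42.0 as the alternative. The edgeR fits were also run on simulated counts, with 1 dispersion shared by all genes (0.175 in the LPS fit and 0.055 in the interaction). There the LPS fit recovered 3 of 60 genes changed by a log2 of 1, 27 of 67 at 2 and 57 of 58 at 4. The interaction recovered 2 of 59, 9 of 64 and 37 of 65. In each of these 2 fits, 5 unchanged genes were called. Measured genes need not share 1 dispersion, so these counts do not give the power of the measured fits. NXPH1, at a measured log2 of -4.02 in the LPS fit, was not called. CPM are UMIs of a gene per 1000000 UMIs of the summed class. Between conditions the thresholds were an adjusted p of 0.1 and a log2 of 0.25, after the threshold that the study states for granule cells, and between classes 0.05 and 1. Intervals are Clopper-Pearson. Figures were drawn with matplotlib 3.10.9.

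Named genes were, against other nuclei, the 20 with the largest log2 difference among those called, higher in all 4 libraries and with at least 10 UMIs in each; against border macrophages, the 10 largest per direction; between conditions, where none was called, the 5 with the smallest p per direction and non-overlapping groups. List genes were named by values mostly where they held at least 20 UMIs. The members and the 23 lists were chosen with earlier results of these data known. List members missing from the annotation used, such as C1QA and CXCL8, were not analysed here, and a few genes are not reported here. Alternatives are given in the closing section; the choice about mixed nuclei was made after seeing the data.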

Additional observations from a re-analysis of the deposited data

Results flagged for a closer look

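The LPS difference of 3 genes was not the same in microglia and in other nuclei by a test of the interaction (edgeR). For MSR1 the log2 LPS difference in microglia minus that in other nuclei was 2.62, for NXPH1 it was -3.66 and for NTNG1 -2.76. MSR1 was not called under 8 of the 9 alternatives. Its level in the other nuclei of the LPS female was 4.11 CPM, against 23.7 to 44.9 CPM in the other 3 libraries. The mixed nuclei held 172 of the 178 UMIs of NXPH1 and 42 of the 53 of NTNG1.

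The share of microglia among nuclei moved in opposite directions in the sexes, and the directions depended on how it was counted. Between the females the difference of LPS minus Control was -0.0981 percentage points, and between the males it was 0.113 points. With each barcode thinned to 1000 UMIs, the share was higher in LPS in both sexes (0.415 against 0.383% in the females and 0.249 against 0.242% in the males). Counted as a share of UMIs, both directions turned, with 0.683 against 0.651% in the females and 0.769 against 0.858% in the males. With 1 fetus per sex and group, the difference between the sexes was not tested.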

How the results depend on the processing

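The LPS minus Control difference in the share of microglia moved by less than the SD of the Control shares (0.182 points) under all 10 alternatives, though by more than that of the LPS shares under some, and lay between -0.121 and 0.136 percentage points with 1 library left out. The shares themselves moved more, with means of 0.755% in Control and 0.726% in LPS when counted as a share of UMIs. Between LPS and Control, the count of 0 called genes became 5 with no filter on low counts and 26 with sex as a block, and ranged from 0 to 30 when 1 library was left out, and no gene was called under the other alternatives. Against other nuclei, 3476 genes in place of 1896 were called without the mixed nuclei, and 1306 to 2076 with 1 library left out. DESeq2 called 995 higher and 527 lower there, so that 65.4% of calls were higher against 49.9%. Against border macrophages, 54 in place of 143 genes were called with DESeq2, 2 with at least 3 rule markers (in 3 libraries, since the LPS male then had no border nucleus), 58 without the mixed nuclei and 32 to 101 with 1 library left out (32, 69, 35 and 101 without the Control female, Control male, LPS female and LPS male). For the interaction, 0 in place of 3 genes were called with DESeq2 and without the mixed nuclei, 1 with no filter, 6 with at least 3 markers and 1 to 41 with 1 library left out (20, 1, 2 and 41 in that order). LHFPL3 turned to 1.09 without the mixed nuclei. Of the values of named genes under the alternatives, all 180 against other nuclei kept direction and call, though these genes were chosen for the largest differences and do not stand for the other calls. Against border macrophages 135 kept it and 17 lost it, for the interaction 7 kept it and 20 lost it, and between LPS and Control 108 stayed uncalled, 16 became called and 1 reversed. The cause was not tested in these cases. The replicate numbers follow accession order and were not used to pair fetuses. The fit with sex as a block stands in for a paired one. The 157 nuclei, the deep mixed nuclei among them and 2 fetuses per group limit the precision.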

Other observations

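A few values outside the lists are given with no explanation, for genes chosen after their values were seen. VWF, the von Willebrand factor of endothelial cells and platelets, had 364, 516, 308 and 272 CPM in microglia (Control female, Control male, LPS female and LPS male) and 6.07, 15.5, 8.94 and 5.08 CPM in other nuclei (log2 5.24, SE 0.22, edgeR adjusted p = 1.56e-14). After thinning to 1000 UMIs it was detected in 31.6% of microglial nuclei and 0.706% of the others. The 12 endothelial and mural markers together took 94.3, 145, 104 and 136 CPM in microglia and 151, 193, 187 and 107 CPM in other nuclei, with CLDN5, RGS5 and KCNJ8 at 0 UMIs in microglia. Of these markers PECAM1 was higher in microglia and FLT1, ERG and MECOM were lower.

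CD4, which macrophages of primates can carry, had 6.73 CPM in the microglia of the Control female and 98.5, 123 and 118 CPM in those of the Control male, LPS female and LPS male. The border macrophages of the Control female had 260 CPM of it, so the low value was seen in the microglia of that fetus and not in both classes.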
